A study of Mus musculus with 89 samples.

Results

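MHC class I presentation is described here through 6 genes taken by name from the 19962 targets of the panel, and all 6 were present: B2m, H2-K1, H2-D1, Tap1, Tap2 and Tapbp. The study compared neutrophils of several tumour regions, before and after immunotherapy, in squamous cell carcinoma of mice. The assay was GeoMx digital spatial profiling with a mouse whole-transcriptome panel, in which oligonucleotide tags bound to RNA on a frozen section are released by ultraviolet light from a chosen region and then sequenced. Each of the 89 segments is a small tissue region that the labels call neutrophil and that can hold cells of other types.

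The authors' annotation puts the segments into 7 classes by slide and location. The naive slide is pre-treatment and held 15 stroma, 13 interface and 14 within-tumour segments. The other slides are post-treatment: acute, with 9 stroma and 2 interface segments, and relapse, with 14 stroma and 22 interface segments. With a single slide for each stage, slide and stage cannot be told apart. Scan names in the annotation read "UP HRass" for the naive slide, "treated" for the acute slide and "DMBA Relapse" for the relapse slide, so the tumour model may differ between slides too. The agent and dose of the treatment, and the strain, age and number of animals, are not given in the sources used here. Segments share animals, tumours and slides, so every p-value below, which is computed over segments, is too small. Plate G held the whole naive slide and plate H the whole relapse slide. Acute stroma was split between them, 4 on G and 5 on H, and both acute interface segments were on H.

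Class I molecules show peptides from inside a cell to CD8 T cells. H2-K1 and H2-D1 encode the classical heavy chains, which carry the peptide, and B2m encodes beta-2 microglobulin, the light chain without which most heavy chains do not reach the cell surface. Tap1 and Tap2 form the transporter that moves peptides into the endoplasmic reticulum, and Tapbp encodes tapasin, which holds an empty class I molecule next to that transporter. Nearly all nucleated cells make class I, and interferons raise it, so a class I level in a region is a property of all its cells. Fewer cells of a type and less RNA per cell cannot be told apart in such a segment.

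In the RefSeq annotation of GRCm38.p6, B2m lies at chr2:122147687-122153082, and the other members lie on chromosome 17. These are H2-K1 (chr17:33996012-34000619), H2-D1 (chr17:35263094-35267497), Tap1 (chr17:34187556-34197225), Tap2 (chr17:34204479-34216321) and Tapbp (chr17:33919478-33929290). A promoter entry was at hand for 5 of the 6 genes. It is shown for the light and heavy chains, B2m and H2-D1 with the 250 bases before the start and H2-K1 with 30 bases around its match. Capitals mark matches to 2 motifs searched on both strands, the interferon-stimulated response element core (GAAA, any 2 bases, GAAA) and the NF-kB consensus.
B2m, chr2:122147437-122147686, plus strand: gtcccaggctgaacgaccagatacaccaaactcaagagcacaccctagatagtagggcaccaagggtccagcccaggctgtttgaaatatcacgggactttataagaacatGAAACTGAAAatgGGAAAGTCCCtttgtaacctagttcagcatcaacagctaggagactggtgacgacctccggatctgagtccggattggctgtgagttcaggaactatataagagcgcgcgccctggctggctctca
H2-D1, chr17:35262844-35263093, plus strand: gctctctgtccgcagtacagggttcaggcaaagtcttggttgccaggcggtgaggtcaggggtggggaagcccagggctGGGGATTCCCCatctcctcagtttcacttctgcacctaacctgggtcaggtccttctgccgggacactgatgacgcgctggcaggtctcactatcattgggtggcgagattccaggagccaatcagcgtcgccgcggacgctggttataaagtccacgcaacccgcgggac
H2-K1, chr17:34000439-34000468, minus strand: gcccagggctGGGGATTCCCCatctccaca

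The B2m stretch held both motifs, the interferon core from base -139 to -130 and the NF-kB match from -126 to -117, counted back from the start. The H2-K1 and H2-D1 stretches held an NF-kB match of 11 bases with the same letters, from -111 in H2-K1 and from -171 in H2-D1. Positions count back from the start of the RefSeq transcript entry. H2-K1 has 2 such entries, of which the first was used, and both starts lie inside the gene interval given above, so the printed H2-K1 stretch lies within it too. These matches lie in a longer run of 47 bases that the 2 heavy chain genes have in common within their 250 bases, whereas B2m shared at most 8 bases in a row with either. In windows from 250 bases before to 50 after the start, the NF-kB consensus was found for 3 of the 5 members with an entry and for 9.55% of 27025 genes, and the interferon core for 1 of 5 and for 3.99%. Neither was found in the windows of Tap1 and Tapbp. Only exact matches to the 2 patterns were counted, so an element with other letters or spacing would be missed, in the heavy chain genes too. A match is a description of the letters and not a site of binding.

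Deposited values are tag counts divided by 1 upper-quartile factor per segment, and multiplying by the factor gave the counts back. The smallest count was 1, which is the floor of the file, and 69.1% of all values were at it. Depth, the sum of counts above the floor, ranged from 573 to 208675 with a median of 7216, and its class medians ran from 3570 in relapse interface to 64652 in acute stroma. Levels are given as counts per segment, and as counts above the floor per 10000 such counts (below, per 10000), where an average target has 0.501. Each target has its own probes, so counts of different genes are not compared as amounts of RNA. The 15 neutrophil markers together had a median per 10000 between 6.70 in naive stroma and 16.9 in acute interface, where 15 average targets would have 7.51. At the floor in all segments of their class were Elane in naive tumour, Camp and Elane in acute interface, Mmp8, Ngp, Lcn2 and Il1b in relapse stroma, and Retnlg in relapse interface. Their highest segments were at 26.6 in acute interface and 53.9 in relapse interface, where the median was 10.3. The segments are called by their class below.

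The members fell into a well measured group, the light and heavy chains, and a group at the level of an average target, the peptide-loading genes. A count passed the limit of quantitation when it was above 2 and also above a negative-probe level, the geometric mean of the segment's negative probes multiplied by the square of their geometric SD. H2-D1 exceeded it in 55 of 89 segments, H2-K1 in 52 and B2m in 50, against a median of 5 segments over all targets. Pooled over all segments, B2m had 7.94 counts per 10000, which is 15.8 times the average target, H2-D1 12.7 times and H2-K1 6.79 times. Tap1 exceeded the limit in 6 segments, Tap2 in 5 and Tapbp in 4, and their pooled levels were 0.675, 0.720 and 0.974 times the average target. The tests took the 5087 targets that passed this limit in 10% of segments or more, so 3 members entered the tests and the 3 peptide-loading genes were fitted only in an alternative without this filter.

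**Figure D1:**
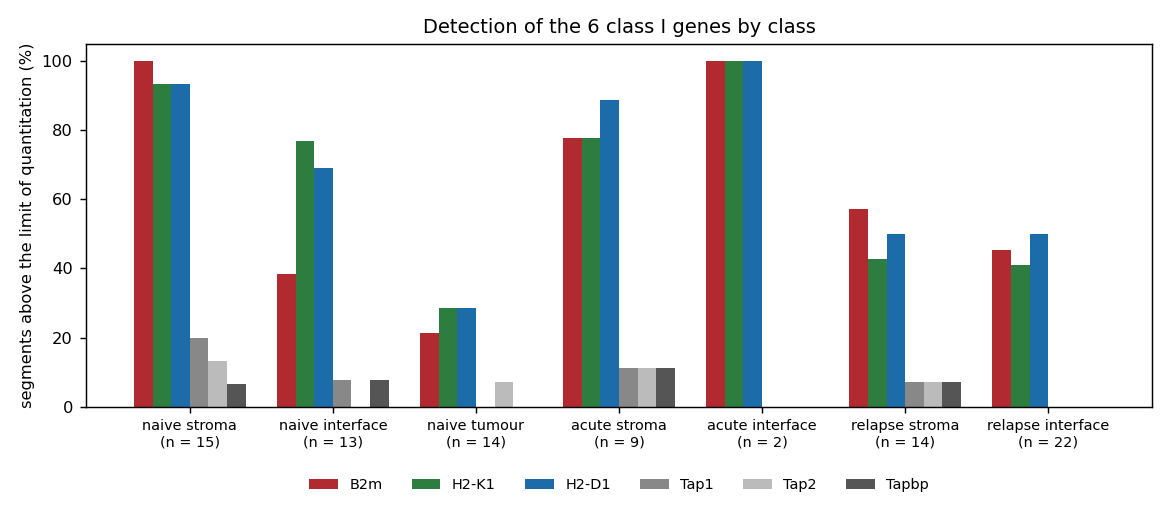
Bars give the percentage of segments in which each of the 6 genes exceeded the limit of quantitation (y axis, percent), for the 7 classes on the x axis with their number of segments. B2m reaches 100% in naive stroma and 21.4% in naive tumour, and no Tap1, Tap2 or Tapbp bar is above 20%.

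On the naive slide the B2m median was higher in stroma than in interface and tumour, where location went with tissue piece as given below. In the 15 naive stroma segments its count ran from 3 to 168 with a median of 18, and all 15 exceeded the limit of quantitation. In naive interface the count ran from 1 to 29 with a median of 2, and 5 of 13 segments exceeded the limit. In naive tumour it ran from 1 to 5 with a median of 1, and 3 of 14 did. The stroma range began at a count of 3, and interface counts up to 29 and tumour counts up to 5 overlapped it.

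On the post-treatment slides stroma was not above interface throughout. Acute stroma had B2m counts from 3 to 324 with a median of 17, and the 2 acute interface segments had 25 and 61. Relapse stroma had 1 to 20 with a median of 3.5, and relapse interface 1 to 7 with a median of 2, so the relapse ranges overlapped. Depth differs between classes, and per 10000 the B2m medians were 18.7 in naive stroma, 8.34 in acute interface, 7.33 in acute stroma, 4.07 in relapse interface, 3.33 in relapse stroma, 0.727 in naive interface and 0 in naive tumour. The relapse classes changed places between these scales, and the acute interface median was above that of acute stroma on both.

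H2-D1 followed the same order on the naive slide. Its count in naive stroma ran from 1 to 145 with a median of 11, in naive interface from 2 to 30 with a median of 5, and in naive tumour from 1 to 8 with a median of 2. Per 10000 the medians were 14.9, 2.18 and 1.31. Outside the naive slide the H2-D1 count medians were 15 in acute stroma (2 to 128), 3.5 in relapse stroma (1 to 25) and 2.5 in relapse interface (1 to 10), and the 2 acute interface segments had 34 and 48. Per 10000 these medians were 4.51 in acute stroma, 7.94 in acute interface, 6.50 in relapse stroma and 4.45 in relapse interface.

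H2-K1 had the fewest counts of the tested members summed over all segments, but not in every class. Naive stroma had 1 to 64 with a median of 6, naive interface 1 to 12 with a median of 3 and naive tumour 1 to 5 with a median of 1. The limit of quantitation was passed in 14 of 15, 10 of 13 and 4 of 14 of these segments. Acute stroma had 4 to 86 with a median of 8, relapse stroma 1 to 21 with a median of 2, relapse interface 1 to 6 with a median of 2, and acute interface 15 and 31. In all 3 genes the naive stroma and naive tumour ranges overlapped at low counts.

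**Figure D2:**
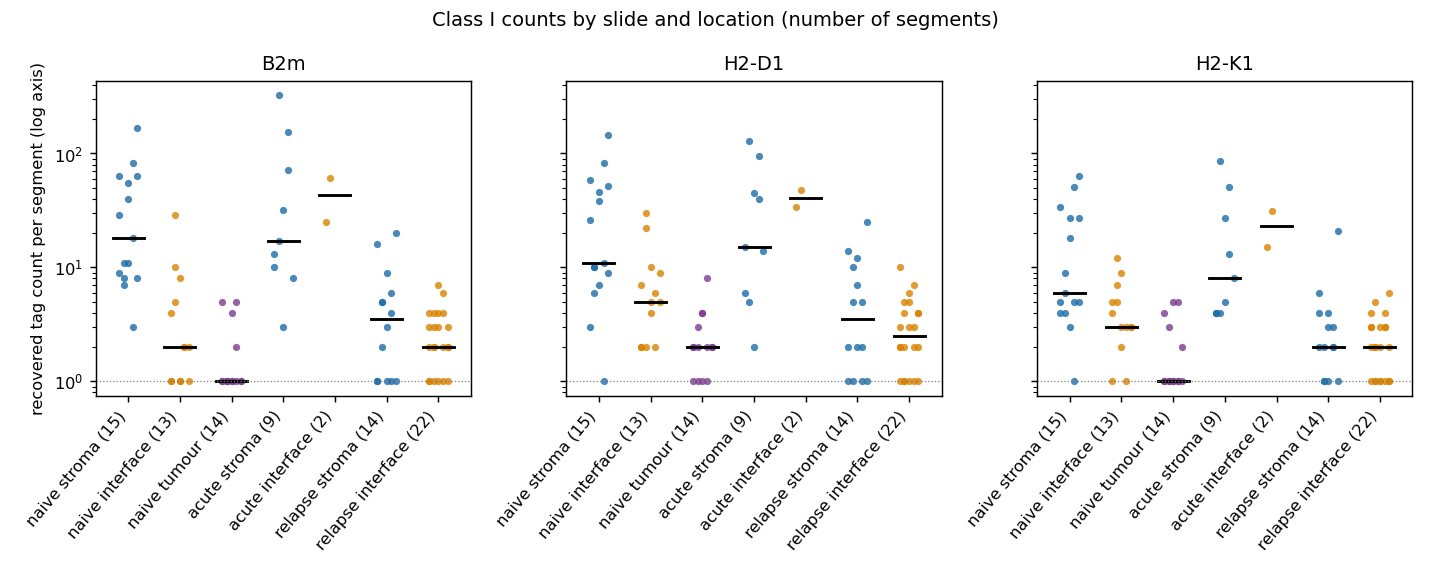
Each point is the recovered tag count of 1 segment (y axis, log axis) for B2m, H2-D1 and H2-K1, by class on the x axis with the number of segments in parentheses. Black lines are class medians and the dotted line is the floor of 1 count; the naive stroma medians are 18, 11 and 6 and the naive tumour medians are 1, 2 and 1.

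Differences between classes were tested with limma on log2(value + 1) of the deposited values, with 1 mean per class, a term for log2 depth and Benjamini-Hochberg adjustment over all 5087 targets at 0.05. The floor and the added 1 can shrink the differences of targets near the floor. The deposited value of a floor count also varies with the segment's factor, which can shift such differences in either direction. From naive stroma to naive interface, B2m fell by 2.80 (log2; SE 0.391; adjusted p = 1.78e-08). H2-D1 fell by 1.69 (SE 0.376, adjusted p = 0.000578) and H2-K1 by 1.47 (SE 0.318, adjusted p = 0.000433). All 3 tested members were called lower, where 10.2% of all tested targets were called lower and the median over all was -0.14. B2m had the third lowest difference of the 5087 targets.

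From naive stroma to naive tumour, B2m fell by 3.11 (SE 0.402, adjusted p = 8.43e-10), H2-D1 by 2.13 (adjusted p = 2.35e-05) and H2-K1 by 1.72 (adjusted p = 6.20e-05). Again all 3 were called lower, against 3.81% of tested targets and a median of -0.07. This comparison and the one above share the naive stroma segments. Between naive tumour and naive interface none of the 3 was called by limma, and 0% of all tested targets were (369 had an unadjusted p under 0.05). The B2m difference was -0.31 with a 95% interval from -1.14 to 0.53, that of H2-D1 -0.44 (-1.24 to 0.36) and that of H2-K1 -0.26 (-0.93 to 0.42).

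Location on the naive slide went with the piece of tissue. The annotation gives the position of each segment but no tissue piece, so pieces were inferred by joining positions that lay within 8000 position units of each other, which gave 5 pieces on the naive slide. Of the 13 interface segments, 8 were on piece 2, 4 on piece 5 and 1 on piece 1. Of the 15 stroma segments, 6 were on piece 3, 4 on piece 4, 3 on piece 1 and 2 on piece 2. Classes could thus be compared within a piece for a few segments only.

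On piece 2 the 2 stroma segments had B2m counts of 3 and 8, which lay within the range of the 8 interface segments there (1 to 10) and next to the 7 tumour segments (1 to 4). On piece 1 the 3 stroma segments had 63, 82 and 168 and the single interface segment had 29. Per 10000 that interface segment, at 45.3, was above these 3 stroma segments, which ran from 8.91 to 20.1. The tumour segments of piece 1 had 1, 1 and 5, and the last of these had 50.3 per 10000 at the depth of 796. On piece 4 the 4 stroma segments had 7 to 29 and the 2 tumour segments 1 and 5. The stroma segments of pieces 1, 3 and 4 were thus high in B2m and those of piece 2 were low.

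With the piece as a fixed term, so that classes are compared within pieces, the interface minus stroma difference was -1.33 for B2m (adjusted p = 0.219), -0.53 for H2-K1 (adjusted p = 0.643) and -0.17 for H2-D1 (adjusted p = 0.926), and no member was called. The tumour minus stroma difference was -1.79 for B2m (adjusted p = 0.0489), which kept its call, and -0.82 for H2-D1 (adjusted p = 0.639) and -0.87 for H2-K1 (adjusted p = 0.479), which lost theirs. With the piece as a random block all 3 members were called in both comparisons. Without the segments of piece 2, 1 member was called in interface minus stroma and 3 in tumour minus stroma.

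**Figure D3:**
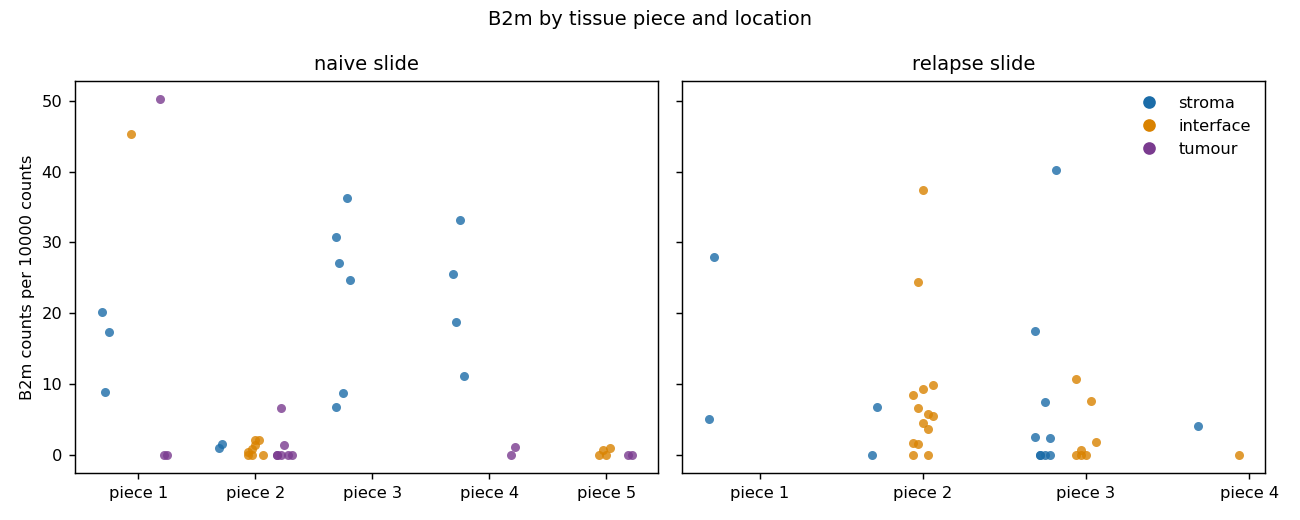
Points are segments of the naive slide (left) and the relapse slide (right), placed by inferred tissue piece on the x axis and coloured by location, with B2m counts per 10000 counts above the floor on the y axis. The stroma segments of naive piece 2 lie at 0.955 and 1.62, below every stroma segment of naive pieces 1, 3 and 4.

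On the relapse slide limma called no member between interface and stroma, and no other target (0% called, 122 with an unadjusted p under 0.05). The difference was -0.39 for B2m with a 95% interval from -1.09 to 0.30, -0.35 for H2-D1 (-1.03 to 0.32) and -0.17 for H2-K1 (-0.74 to 0.40). The change of this difference from the naive to the relapse slide was tested as an interaction. It was 2.41 for B2m (SE 0.529, adjusted p = 0.00221), and it did not pass for H2-D1 at 1.34 (adjusted p = 0.121) or H2-K1 at 1.30 (adjusted p = 0.0632). The share of all tested targets called higher was 3.50% and the median was 0.16. For B2m the interaction was not called without naive piece 2 (2.33, adjusted p = 0.106), relapse piece 2 (1.82, adjusted p = 0.177) or relapse piece 3 (2.28, adjusted p = 0.0943), nor with segments thinned to equal depth (1.16, adjusted p = 0.802). From stroma to interface the summed fibroblast markers had medians of 212 and 14.7 per 10000 on the naive slide, and 15.2 and 40.2 (5.78 to 175) on the relapse slide. The macrophage medians were 22.4 and 4.97 on the naive slide and 7.82 and 4.20 (0 to 24.9) on the relapse slide. The part of these cells in the interaction was not tested.

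In stroma across stages, relapse was lower than naive for B2m by a log2 difference of -1.99 (SE 0.404, adjusted p = 0.000735), while H2-D1 at -1.21 (adjusted p = 0.0946) and H2-K1 at -0.98 (adjusted p = 0.126) did not pass. Of all tested targets 1.32% were called lower. Naive and relapse stroma were on different plates, and with plate as a covariate, which rests on the acute stroma segments, the B2m difference was -1.42 (adjusted p = 0.779). It was not called either without relapse piece 3, or with 1 mean per tissue piece and class (-2.55, adjusted p = 0.524), or after thinning to equal depth (-0.96, adjusted p = 0.389). Between the same classes the summed fibroblast markers went from a median of 212 per 10000 in naive stroma to 15.2 in relapse stroma (7.26 to 460), the macrophage markers from 22.4 to 7.82 (0 to 75.1) and the 10 keratinocyte markers from 8.60 to 70.3 (17.7 to 134). The B and plasma cell markers went from 3.12 to 17.9 (0 to 910), where 6 average targets would have 3.01. Median depth was 10736 in naive and 3964 in relapse stroma. The T and NK cell markers went from 3.08 to 0 (0 to 7.69), where 7 average targets would have 3.51. The part of these cells in the B2m result, and of depth in the marker medians, was not tested.

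Between acute and naive stroma none of the 3 members was called, where 0.118% of targets were. The differences were -0.42 for B2m (95% interval -1.29 to 0.45), -0.55 for H2-K1 (-1.26 to 0.15) and -0.73 for H2-D1 (-1.57 to 0.11). Relapse minus acute stroma was -1.58 for B2m (adjusted p = 0.0793), -0.48 for H2-D1 (adjusted p = 0.761) and -0.43 for H2-K1 (adjusted p = 0.746), with 0.983% of targets called. On plate H alone the B2m difference was -0.41 (adjusted p = 0.783). Relapse minus naive interface was 0.41 for B2m, 0.31 for H2-K1 and 0.13 for H2-D1, none of them called, against 1.45% of targets. The stage comparisons share the naive and the acute stroma segments.

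**Figure D4:**
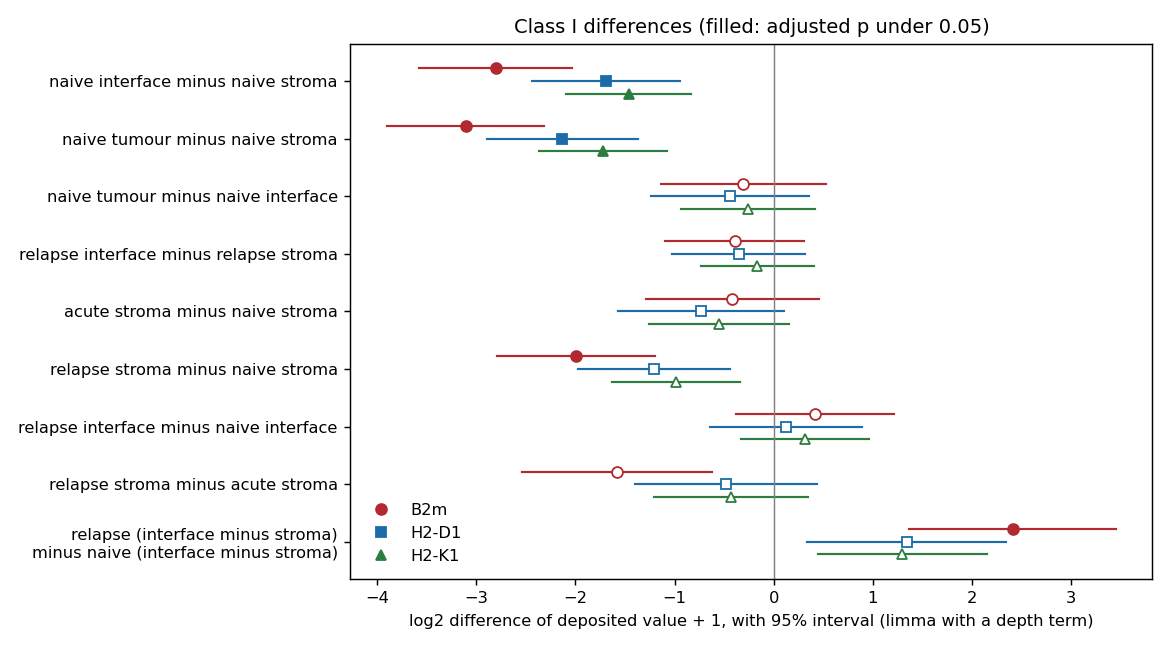
Points are log2 differences of the deposited value + 1 from the limma fit (x axis), with 95% intervals as lines, for B2m, H2-D1 and H2-K1 in the 9 comparisons on the y axis; filled symbols passed an adjusted p of 0.05. All 3 genes are filled in the 2 comparisons with naive stroma on the naive slide, and of the others B2m alone is filled in relapse minus naive stroma and in the interaction.

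Acute stroma was uneven within its class. Its 4 segments on piece 5 had 29.03 to 52.4 B2m counts per 10000, and its other 5 segments, on pieces 1, 2 and 4, had 1.08 to 7.33. By plate, the 4 segments on G had a median of 38.6 and the 5 on H a median of 2.08. For H2-D1 the plate medians were 16.2 and 2.95, and for H2-K1 7.88 and 2.40. Both plates held high and low B2m segments, since the ranges ran from 1.08 to 52.4 on G and from 1.64 to 29.03 on H.

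The peptide-loading genes stayed near the floor in every class. Tap1, one chain of the transporter, was above the floor in 7 of 15 naive stroma segments with a highest count of 7, in 4 of 13 naive interface segments and in 0 of 14 naive tumour segments. Its highest count was 11, in acute stroma, and in relapse it was above the floor in 4 of 14 stroma and 1 of 22 interface segments. Tap2, the other chain, was above the floor in 9, 4 and 1 segments of the naive classes in the same order, in 5 of 9 acute stroma segments and in 5 of 36 relapse segments. Tapbp was above the floor in 7, 3 and 2 segments of the naive classes, in 8 of 9 acute stroma segments and in 8 of 36 relapse segments. These counts follow depth as well as level, since acute stroma was the deepest class and relapse the shallowest. Without the filter on low targets, which puts all 19962 targets in the fit, Tap2 was lower in naive interface than in naive stroma by a log2 difference of -0.51 (SE 0.161, limma adjusted p = 0.0472), where 3.79% of targets were called lower. Tap1 at -0.47 (adjusted p = 0.0709) and Tapbp at -0.35 (adjusted p = 0.269) did not pass there, and none of the 3 was called in the other 8 comparisons of that fit. Of the 768 targets called between naive interface and stroma in it, 756 were lower. Tap2 was at the floor in 6 of 15 naive stroma and 9 of 13 naive interface segments. The deposited value of a floor count varies with the segment's factor, and its part in the Tap2 difference was not tested.

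All of B2m, H2-K1 and H2-D1 were above the floor together in 14 of 15 naive stroma segments, 7 of 13 naive interface segments and 1 of 14 naive tumour segments. In relapse this was so in 6 of 14 stroma and 10 of 22 interface segments, and in acute in all 11. At least 1 of the peptide-loading genes was above the floor in 46 of 89 segments, and all 6 members were in 10. The balance of light and heavy chain counts also varied: B2m had more counts than H2-D1 in 12 of 15 naive stroma segments, whereas H2-D1 had more in 10 of 13 naive interface and 8 of 14 naive tumour segments. In relapse stroma H2-D1 had more counts in 7 and B2m in 3 of 14 segments, and in relapse interface 10 and 8 of 22. Near the floor a single count turns this order, and it was not tested.

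The heavy and light chains varied together on the naive slide and less so on the relapse slide. Per 10000, the Spearman correlation with B2m over the 42 naive segments was 0.708 for H2-D1 and 0.662 for H2-K1, and that between the heavy chains was 0.646. Over the 36 relapse segments the values were 0.404, 0.384 and 0.025. With the peptide-loading genes B2m had a correlation from 0.159 to 0.288 in naive and from -0.155 to 0.114 in relapse. Counts were lower in relapse, with medians of 2.5 for B2m, 2 for H2-K1 and 2.5 for H2-D1, against 4, 4 and 5 in naive. At the floor were 11, 12 and 10 of 36 relapse segments, and 15, 12 and 5 of 42 naive segments. The part of low counts in the weaker relapse correlations was not tested. These are descriptions over segments that share tissue and differ in depth.

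The 541 targets above the limit in at least 30% of segments were ranked by the mean of their naive and relapse Spearman correlations with B2m, whose median was -0.04. The 6 most alike outside the members were Apoe (0.653), Fth1 (0.646), Ctss (0.634), Psap (0.585), Col1a1 (0.582) and Ftl1 (0.561), and H2-D1 (0.556) would rank 7 and H2-K1 (0.523) would rank 11. Apoe encodes apolipoprotein E, Fth1 and Ftl1 the ferritin heavy and light chains, Ctss and Psap the lysosomal proteins cathepsin S and prosaposin, and Col1a1 a collagen I chain. In the naive segments alone the correlation was 0.786 for Apoe, 0.803 for Fth1 and 0.793 for Ctss.

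Markers of fibroblasts and macrophages moved with the naive comparison. The 9 fibroblast markers summed to a median of 212 per 10000 in naive stroma (15.5 to 354), 14.7 in naive interface (7.93 to 336) and 5.62 in naive tumour (0 to 41.3). The 10 macrophage markers summed to 22.4 (3.34 to 54.5), 4.97 (3.28 to 63.1) and 5.09 (0 to 163), and the 15 neutrophil markers to 6.70 (3.19 to 10.7), 7.14 (0 to 10.3) and 7.97 (0 to 15.2). All fibroblast and macrophage markers were above the floor in each naive class, and Elane of the neutrophil list was at the floor in naive tumour. The Spearman correlation with B2m over the naive segments was 0.649 for the macrophage list, 0.568 for the fibroblast list and 0.103 for the neutrophil list, and in relapse 0.390, 0.562 and -0.05. With depth it was 0.01 in naive and -0.18 in relapse, and with the number of nuclei -0.27 and -0.42. The part of these cells in the B2m difference was not tested.

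**Figure D5:**
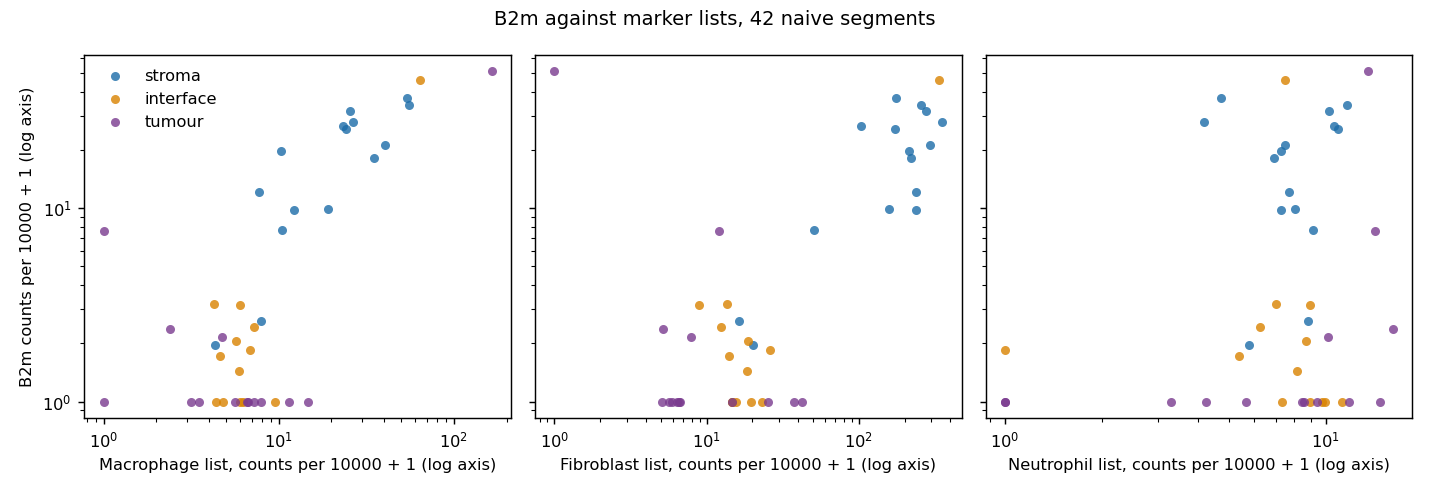
Each point is 1 of the 42 naive segments, coloured by location, with the summed counts per 10000 + 1 of the macrophage, fibroblast and neutrophil marker lists on the x axes and B2m counts per 10000 + 1 on the y axis (log axes). Most stroma points lie to the upper right for macrophage and fibroblast markers, with 2 stroma segments of low B2m among the interface points. Above all stroma points in B2m lie 1 interface segment (B2m 45.3, macrophage 63.1, fibroblast 336) and 1 tumour segment (50.3, 163 and 0). No such order is seen for neutrophil markers (Spearman correlation 0.103).

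A list of 26 other genes of the class I pathway had 22 on the panel, of which 12 were tested. In naive interface minus stroma 4 of the 12 were called lower and 0 higher, against 10.2% called lower over all tested targets, 10 lay below 0, and their median was -0.43 against -0.14 for all tested targets. The 4 were Pdia3 (-1.10), a thiol oxidoreductase of the loading complex, Canx (-0.81), the chaperone calnexin, Psme1 (-0.69), a subunit of the proteasome activator, and H2-T23 (-0.65), the non-classical heavy chain Qa-1. In naive tumour minus stroma only Canx was called, at -0.99, where 3.81% of all tested targets were called lower, and the median was -0.27 against -0.07. Canx was also called in the interaction, at 1.21, where 3.50% of targets were called higher. In the other 6 comparisons limma called 0 of the 12, of which 0 to 2 had an unadjusted p under 0.05. Location on the naive slide went with tissue piece for these genes too, and their calls were not examined in the alternatives.

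The non-classical and loading genes had far fewer counts than the classical chains. The 4 with the most counts were Calr, the chaperone calreticulin, H2-Q6, a Qa-2 family heavy chain, Canx and Pdia3. Pooled, Calr had 3.0 times and H2-Q6 2.79 times the average target. H2-Q6 was quantifiable in 5 of 15 naive stroma, 11 of 13 naive interface and 6 of 14 naive tumour segments, classes that differ in depth. Its fitted interface minus stroma difference was 0.45 (adjusted p = 0.229) and was not called. H2-Q6 belongs to a family of near-identical genes, as do H2-K1 and H2-D1 to a lesser degree, and whether a probe also binds RNA of a relative was not tested. Pdia3 exceeded the limit in 9 of 15 naive stroma and 1 of 13 naive interface segments, and Canx in 6 of 15 and 4 of 13.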

How the data were processed

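Tag abundance was measured in 89 segments of frozen tumour sections, per the labels' protocols. The deposited values are normalised signal, and each segment's factor, as deposited, is a ratio from its upper quartile. Value times factor was whole within 1e-06 for 99.986% of entries and was used as the count. The submitters' processing notes name mm10 and Seurat; the aligner, the counter and the origin of the floor of 1 are not given in the sources used here. Classes come from the authors' deposited annotation. The members and lists were chosen with earlier results of these data known.

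Targets above the limit of quantitation in at least 10% of segments were tested, with limma 3.58.1 (two-sided; lmFit, then eBayes with a trend) under R 4.3.3, checked on simulated data. The simulated segments were independent, with no tissue piece or plate, so that check does not bear on segments that share tissue. A term for log2 depth was added because a target at the floor has a deposited value of 3.74 at the lowest factor, shared by 51 segments, and 0.288 at the highest. Acute interface, with 2 segments, was not tested. Promoters and positions are RefSeq's for GRCm38.p6. Named genes are the 6 members, pathway genes past the threshold or among the 4 with most counts, and the 6 targets most like B2m. All 89 segments entered the main fit. Alternatives changed the depth term, scale, pseudocount (0.5), filter, plate, tissue piece and depth (thinned to 2000 counts, which leaves out 12 segments).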

Additional observations from a re-analysis of the deposited data

Results flagged for a closer look

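The interface minus stroma difference changed from the naive to the relapse slide for B2m, by 2.41 on the log2 scale in the limma interaction, and for Canx, by 1.21. The Canx call was not examined in the alternatives. In acute stroma the highest Tap1 segment, at 3.27 counts per 10000, stood apart from the next at 0.899 by 0.726 of the range, where the 95% limit for 9 segments is 0.493. Its count was 2 on plate G, so the value is a single count above the floor. Chance flags about 1 in 20 such groups, and 6 genes were examined in this class.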

How the results depend on the processing

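The number of members called changed in 5 of the 9 comparisons. In naive interface minus stroma it was 3, and 0 with the tissue piece as a fixed term or 1 mean per tissue piece and class, and 1 with counts per 10000 or after thinning, and 4, with Tap2 added, without the filter on low targets. In naive tumour minus stroma it was 3, and 1 with the piece as a fixed term or with 1 mean per piece and class, and 2 after thinning. In relapse minus naive stroma it was 1, and 2 without the depth term and 0 with plate as a covariate, 1 mean per piece and class, or thinning. In the interaction it was 1, and 2 with recovered counts and 0 with counts per 10000, 1 mean per piece and class, or thinning. In relapse minus acute stroma it was 0, and 1 with recovered counts. Leaving out each tissue piece in turn gave 1 to 3 members in naive interface minus stroma (1 without naive piece 2), 0 to 3 in relapse minus naive stroma (0 without relapse piece 3, 3 without naive piece 2 or relapse piece 1), 0 to 3 in the interaction (0 without naive piece 2, relapse piece 2 or relapse piece 3, 3 without relapse piece 1) and 0 to 1 in relapse minus acute stroma (1 without acute piece 1, 2 or 4 or relapse piece 1). Counts over all tested targets ranged from 0 to 768 over the alternatives in naive interface minus stroma (546 reported), 5 to 211 in naive tumour minus stroma (206), 0 to 106 in relapse minus naive stroma (82), 0 to 245 in the interaction (180), 0 to 707 in acute minus naive stroma (6), 0 to 856 in relapse minus acute stroma (50), and 0 to 497 in relapse minus naive interface (74). With 1 mean per piece and class fewer units entered, and some fitted differences changed as well. The cause of a lost or gained call was not tested in any alternative.

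Signs turned only among differences that were not called. With 1 mean per piece and class, relapse minus naive interface was -1.83 for B2m, -1.94 for H2-D1 and -1.37 for H2-K1, and the interaction was -0.62 for H2-D1. For relapse minus naive interface H2-D1 was -0.036 without the depth term. Acute minus naive stroma was 0.0039 for B2m with recovered counts and 0.0029 for H2-K1 after thinning, and H2-D1 in relapse minus acute stroma was 0.74 on plate H alone. Leaving out each piece in turn gave -0.12 to 0.81 for B2m, -0.43 to 0.49 for H2-D1 and -0.017 to 0.50 for H2-K1 in relapse minus naive interface. It gave -0.86 to 0.49 for H2-D1 and -0.74 to 0.38 for H2-K1 in relapse minus acute stroma, and -0.59 to 0.12 for H2-K1 in relapse interface minus stroma. Piece as a fixed term and recovered counts were chosen after seeing the data. The pieces themselves were inferred with a distance set after positions were seen, and the random block had a consensus correlation of 0.0363. The 2 edgeR alternatives were not run, although counts could be recovered segment by segment. A check that pooled the segments, whose factors differ, did not accept the deposited normalised values as whole reads. No fit paired by replicate number was made, since the labels give none, and pieces served as the block. Tap1, Tap2 and Tapbp were mostly at the floor at these depths.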
